A study of Homo sapiens with 6 samples.

Results

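The outermost 5 Mb of the human autosomes held 12353 of 115751 matrix-attached regions, or 10.7% of all regions in the 3 lists deposited for a MAR-seq study of H1 human pluripotent stem cells. A region was taken as a member when its centre lay within 5 Mb of the first or last position of an autosome, so that position alone, and no measured value, chose the members. The 22 autosomes have 44 ends. The short-arm ends of the acrocentric chromosomes 13, 14, 15, 21 and 22 have no sequence in GRCh38 and so could hold no region, which left 39 ends. MAR-seq sequences the DNA that stays with the insoluble matrix of the nucleus after detergent extraction, formaldehyde fixation and digestion with restriction enzymes. There were 3 groups with 2 samples each: untreated H1 cells (hPSC), H1 cells with a short hairpin RNA against luciferase (shLUC), taken here as the hairpin control, and the same cells in which a hairpin targeted HNRNPU (shHNRNPU). All cells were of the same embryonic stem cell line, grown without feeders in mTeSR1 medium, and the labels named neither the hairpin sequence nor the number of clones.

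The nuclear matrix is the protein and RNA scaffold that remains when soluble nuclear material is removed, and matrix attachment regions are the stretches of DNA held by it. HNRNPU, also known as SAF-A, is an abundant nuclear protein that binds RNA and scaffold-attached DNA. The ends of human chromosomes carry telomere repeats, followed inwards by subtelomeric duplications and then by DNA that is often rich in genes, in G and C and in CpG islands.

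For each group there was 1 region list, in which every region was 400 bp wide and had a score of 0. No spread between cultures or libraries could therefore be computed and no test was made. Intervals below are 95% intervals that cover counting error only, and neighbouring regions are not independent. The region names of the hPSC list carried a tag, rp1, that no source used here explains, so whether that list stands for 1 sample or both is not known, and this touches each comparison with hPSC. The labels name total RNA and a transcriptomic source for these libraries, whereas their protocol describes the extraction of DNA from the matrix. Read depth is unknown. The lists hold no expression value, so that the knockdown could not be checked. The HNRNPU gene itself lay 4.10 Mb from the end of the long arm of chromosome 1 (1q), with 1 region in hPSC, 1 in shLUC and 2 in shHNRNPU.

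The 39 ends made up 6.78% of the autosomal length and held 9.95% of autosomal regions in hPSC, 11.4% in shLUC and 11.1% in shHNRNPU. Members numbered 3931 in hPSC, 4447 in shLUC and 3975 in shHNRNPU.

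To show what DNA these lists mark at chromosome ends, 6 stretches before gene start sites are printed, 2 for each pattern of presence, namely those nearest to an end in which at least 150 bases of a region lay before the start site and outside any gene. The first pair touched regions of all 3 lists. ZNF324 codes for a zinc finger protein, and its stretch was chr19:58466916-58467079 on the plus strand, 0.151 Mb from the end of 19q. PDCD2 codes for a protein linked to ribosome assembly, and its stretch was chr6:170584638-170584836 on the minus strand, 0.221 Mb from the end of 6q. Both lay wholly under the regions of the hairpin lists, and the hPSC regions covered 143 of the 164 bases for ZNF324 and 38 of the 199 bases for PDCD2. The second pair lay under a region in shLUC only. These were PLEKHG4B (chr5:91918-92167, plus strand, 0.0921 Mb from the end of 5p), which codes for an exchange factor of small GTPases, and FAM20C (chr7:192335-192570, plus strand, 0.192 Mb from the end of 7p), which codes for the kinase of secreted proteins. The third pair lay under a region in shHNRNPU only. These were HSBP1L1 (chr18:79964393-79964642, plus strand, 0.409 Mb from the end of 18q) and PTDSS2 (chr11:448018-448267, plus strand, 0.448 Mb from the end of 11p), which codes for a phosphatidylserine synthase. Sequences are those of RefSeq, build GRCh38.p14, written 5′ to 3′ on the strand of the gene. Capitals mark CCGG and GGCC, the recognition sequences of MspI and HaeIII, which were among the enzymes used on the nuclei.
ZNF324: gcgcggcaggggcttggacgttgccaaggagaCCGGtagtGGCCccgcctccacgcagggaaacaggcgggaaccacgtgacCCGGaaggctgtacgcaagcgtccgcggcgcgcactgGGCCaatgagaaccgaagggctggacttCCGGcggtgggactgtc
PDCD2: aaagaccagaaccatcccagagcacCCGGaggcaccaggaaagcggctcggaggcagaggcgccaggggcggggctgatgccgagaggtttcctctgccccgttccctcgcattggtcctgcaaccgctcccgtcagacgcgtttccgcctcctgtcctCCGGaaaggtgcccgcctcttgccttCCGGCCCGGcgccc
PLEKHG4B: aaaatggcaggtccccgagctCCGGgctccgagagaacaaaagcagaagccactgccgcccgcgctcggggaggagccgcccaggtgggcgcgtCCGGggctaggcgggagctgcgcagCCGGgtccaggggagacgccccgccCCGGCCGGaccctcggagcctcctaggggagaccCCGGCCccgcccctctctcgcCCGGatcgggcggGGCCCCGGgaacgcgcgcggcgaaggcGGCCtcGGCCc
FAM20C: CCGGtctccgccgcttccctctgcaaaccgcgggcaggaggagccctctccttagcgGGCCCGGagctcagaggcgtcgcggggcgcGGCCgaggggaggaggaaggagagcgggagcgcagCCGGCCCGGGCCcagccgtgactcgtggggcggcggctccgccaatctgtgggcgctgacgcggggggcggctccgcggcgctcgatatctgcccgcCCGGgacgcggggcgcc
HSBP1L1: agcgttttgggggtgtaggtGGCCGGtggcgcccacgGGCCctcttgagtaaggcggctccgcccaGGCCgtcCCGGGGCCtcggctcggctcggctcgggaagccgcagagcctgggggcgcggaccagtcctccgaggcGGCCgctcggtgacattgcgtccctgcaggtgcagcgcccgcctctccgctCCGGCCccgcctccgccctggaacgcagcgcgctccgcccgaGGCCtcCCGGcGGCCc
PTDSS2: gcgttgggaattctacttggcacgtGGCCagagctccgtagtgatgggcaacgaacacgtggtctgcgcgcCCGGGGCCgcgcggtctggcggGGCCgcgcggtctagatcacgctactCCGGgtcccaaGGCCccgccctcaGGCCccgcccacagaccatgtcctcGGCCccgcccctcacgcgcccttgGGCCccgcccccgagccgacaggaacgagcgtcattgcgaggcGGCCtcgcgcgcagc
The G and C content of these stretches was 68.9% for ZNF324, 68.3% for PDCD2, 77.6% for PLEKHG4B, 78.0% for FAM20C, 77.2% for HSBP1L1 and 72.8% for PTDSS2. CCGG was found 3, 4, 8, 5, 4 and 2 times in the same order, and GGCC 2, 1, 5, 4, 8 and 8 times. The sequences printed for presence in 1 hairpin list thus held both recognition sequences, as did those for presence in all lists.

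The same letters were counted in all start-site windows, each from 250 bases before to 50 bases after a start site. Of 2381 protein-coding genes at the ends, 1842 had such a window, with 2532 windows in all because some genes have several start sites. Windows on chromosome 8 were not analysed here. The windows at the ends had a median G and C content of 67.7% and a median of 28 CpG dinucleotides, against 61.7% and 21 in the 18624 windows of the rest of the autosomes. Windows that touched a shLUC region had a median G and C content of 74.7% at the ends, those that touched a shHNRNPU region 75%, those that touched an hPSC region 70.0% and those that touched no region 64.7%. Windows in shLUC and not shHNRNPU had 72.3%, and windows in shHNRNPU and not shLUC had 74.3%. The windows held by the hairpin lists were thus richer in G and C than the windows of hPSC, in the rest of the autosomes as well (70.7%, 71.0% and 65.3%).

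CCGG was present in 83.1% of windows at the ends and 74.2% of all autosomal windows, and GGCC in 92.4% and 84.4%. Of the other enzymes of the digest, RsaI (GTAC) had a match in 22.9% of end windows and 27.8% of all windows, AluI (AGCT) in 68.5% and 73.6%, BamHI (GGATCC) in 6.83% and 7.22%, and PvuII (CAGCTG, which contains AGCT) in 19.2% and 18.1%. These letters read the same on both strands. The telomere repeat unit TTAGGG, searched on both strands, was present in 7.70% of end windows and 8.92% of all windows. Among end windows that touched a shLUC region, 97.9% held CCGG, against 76.1% of end windows in no list. A match is a description of the letters, and the part of cutting sites in the position of regions was not tested.

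Region density was higher at the ends than in the rest of the autosomes in each list. It was taken per Mb of chromosome length, and stretches that lack sequence were not subtracted on either side. Over windows of 1 Mb with a gene or region, the log2 ratio of ends to rest was lower, 0.74 in shLUC, 0.70 in shHNRNPU and 0.52 in hPSC. The values that follow are per Mb of length. In shLUC it was 22.8 regions per Mb at the ends and 12.96 in the rest, a log2 ratio of 0.82 (interval 0.77 to 0.86). In shHNRNPU it was 20.4 and 11.98 per Mb, a log2 ratio of 0.77 (interval 0.72 to 0.81). In hPSC it was 20.2 and 13.4 per Mb, a log2 ratio of 0.59 (interval 0.54 to 0.64). The intervals of hPSC and shLUC did not overlap. The median distance between neighbouring regions at the ends was 24.4 kb in shLUC, 28.7 kb in shHNRNPU and 30.3 kb in hPSC, against 44.1, 48.0 and 41.2 kb in the rest.

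The density per Mb of length was not even over the 5 Mb. Stretches that lack sequence, which can fall in the outermost step, were not subtracted. In shLUC it was 21.3 per Mb in the outermost 0.5 Mb, rose to 29.9 between 0.5 and 1 Mb, stayed at 29.4 and 28.5 up to 2 Mb and was 17.4 between 4.5 and 5 Mb. In shHNRNPU the same steps gave 18.8, 26.8, 25.4, 24.2 and 16.8 per Mb. In hPSC they gave 18.4, 26.2, 23.9, 20.97 and 18.4 per Mb. All 3 lists thus had their highest value between 0.5 and 1 Mb from the end, and hPSC was lower than shLUC by most between 1.5 and 2.5 Mb. Beyond 2.5 Mb the lists lay closer together. Protein-coding genes followed a like course, with 14.7 genes per Mb in the outermost 0.5 Mb, 18.97 between 0.5 and 1 Mb and 10.2 between 4.5 and 5 Mb.

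**Figure D1:**
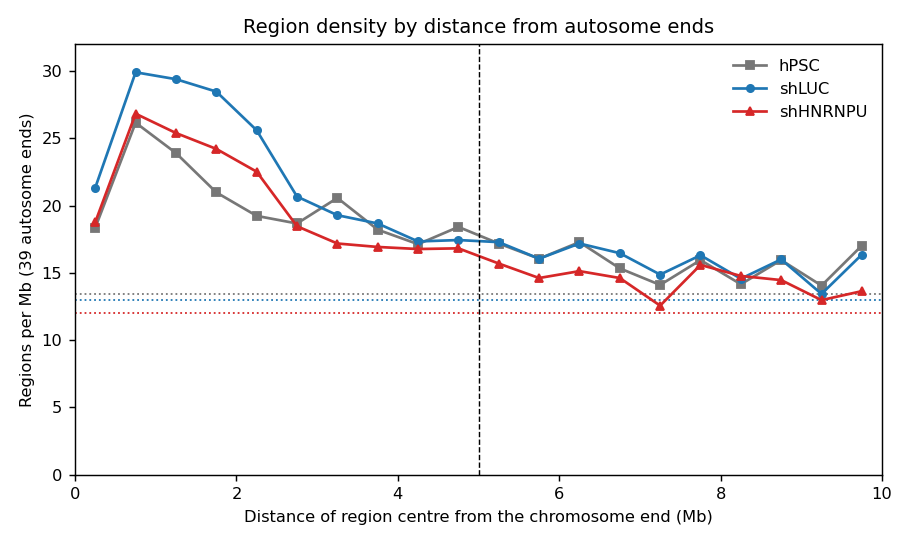
Regions per Mb (y axis) in steps of 0.5 Mb from the chromosome end (x axis, Mb), summed over 39 autosome ends, for the 3 lists. Dotted lines are the density of each list in the rest of the autosomes (13.4, 12.96 and 11.98 per Mb for hPSC, shLUC and shHNRNPU), and the dashed line marks 5 Mb. All 3 lists peak between 0.5 and 1 Mb, where shLUC reaches 29.9 per Mb.

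The count at the ends was 3975 in shHNRNPU and 4447 in shLUC, a change of -10.6% (log2 ratio -0.16, interval -0.22 to -0.10). In the rest of the autosomes the change was -7.56% (log2 ratio -0.11, interval -0.14 to -0.09), and the 2 intervals overlapped. Within the outer 2.5 Mb the change was -12.6% (2626 to 2295 regions) and between 2.5 and 5 Mb it was -7.74% (1821 to 1680 regions). By steps of 0.5 Mb the change was between -9.34% and -14.96% from the end to 4 Mb, and -3.25% and -3.53% in the last steps. In the step from 5 to 5.5 Mb it was -9.20%. Over all autosomal regions of the lists the change was -7.91%. Every step to 4 Mb changed by more than that, and the last steps within the 5 Mb by less. Between 5 and 10 Mb the steps ranged from 1.41% (8 to 8.5 Mb) to -16.6% (9.5 to 10 Mb), so that large falls were not particular to the ends. The belt from 5 to 10 Mb as a whole changed by -9.12% (log2 ratio -0.14, interval -0.21 to -0.06). No interval was computed for single steps.

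The hPSC list also held fewer regions at the ends than shLUC. The change from shLUC to hPSC was -11.6% at the ends (log2 ratio -0.18, interval -0.24 to -0.12) and 3.43% in the rest of the autosomes (log2 ratio 0.05, interval 0.03 to 0.07). In the outer 2.5 Mb it was -19.3% (2626 to 2118 regions), and between 2.5 and 5 Mb it was -0.44%. Between shHNRNPU and hPSC the end counts differed by 1.12%, with an interval of the log2 ratio from -0.05 to 0.08. Untreated cells and the knockdown thus both had fewer end regions than the hairpin control. Hairpin delivery and any difference of preparation between hPSC and shLUC cannot be told apart.

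Of the 4447 shLUC regions at the ends, 1504 had no shHNRNPU region (overlap of at least 1 bp) and are called lost. This was 33.8% (Wilson interval 32.4 to 35.2%), where 29.2% of all shLUC regions of the list were lost. The share in the rest of the autosomes was 28.5%, so that the ends lost 5.31 percentage points more (interval 3.85 to 6.79). Of the 3975 shHNRNPU regions at the ends, 1031 had no shLUC region and are called gained. This was 25.9% (interval 24.6 to 27.3%), where 23.2% of all shHNRNPU regions were gained. Against the rest of the autosomes (22.7%) the difference was 3.27 points (interval 1.85 to 4.73). Both losses and gains were thus more frequent at the ends. When a partner was accepted up to 5 kb away, the difference in losses fell to 2.63 points (interval 1.25 to 4.05), and that in gains to 0.82 points, with an interval from -0.50 to 2.18 that includes 0.

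Against the neighbouring belt from 5 to 10 Mb, the ends lost 3.28 points more (interval 1.13 to 5.41) and gained 2.30 points more (interval 0.21 to 4.37). The lost share did not differ clearly between the outer 2.5 Mb (34.7%) and the inner 2.5 Mb (32.6%), a difference of 2.13 points with an interval from -0.70 to 4.93. All 2943 kept shLUC regions had exactly the same coordinates in shHNRNPU, whereas 171 of the 577 shLUC end regions that overlapped an hPSC region did so with the same coordinates. How the hairpin lists came to share positions to the base is not given in the sources used here, and it leaves a call as present or absent with no measure of strength between.

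The hPSC list shared few positions with the hairpin lists. Of the shLUC end regions, 577 had an hPSC region, or 12.97% (interval 12.02 to 13.99%), where the share over all shLUC regions was 14.2%. Of the hPSC end regions, 3090 of 3931 were in neither hairpin list. In shLUC, 378 regions were in all 3 lists, 2565 in both hairpin lists only, 199 in shLUC and hPSC only and 1305 in shLUC alone. In shHNRNPU, 266 were shared with hPSC only and 765 were in no other list. Lost regions had an hPSC region in 13.2% of cases (interval 11.6 to 15.04%) and kept regions in 12.8% (interval 11.7 to 14.1%), so these did not differ beyond counting error. Gained regions had one in 25.8% (interval 23.2 to 28.6%). In the rest of the autosomes gained regions also had the highest share, 30.0%. There, unlike at the ends, lost regions had an hPSC region more often (15.99%, interval 15.3 to 16.7%) than kept regions (13.7%, interval 13.3 to 14.2%).

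The density differed between ends, and shLUC counts per end ranged from 42 to 173 with a median of 114. The densest ends in shLUC were 16p with 173 regions, 8q with 172, 19p with 168, 9q with 159 and 20q with 153. The sparsest were 3p with 42, 4q with 68, 8p with 70 and 1q with 71. In 37 of 39 ends the shLUC density was above that of the rest of the same chromosome, as it was in 36 ends in hPSC and 36 in shHNRNPU. The rest was again taken per Mb of length, with stretches that lack sequence counted in, which lowers its density. Long-arm ends were denser than short-arm ends, with 23.7 shLUC regions per Mb over 17 long-arm ends and 21.3 over the short-arm ends of the same chromosomes (log2 ratio 0.15, interval 0.06 to 0.25). The log2 ratio was 0.18 in shHNRNPU (interval 0.08 to 0.27) and 0.09 in hPSC, with an interval from -0.01 to 0.19 that includes 0. The 5 long-arm ends of the acrocentric chromosomes had 24.8 per Mb.

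The order of the ends was nearly the same in both hairpin lists. Across the 39 ends, which differ in gene number and share the positions that all lists could hold, the Spearman correlation was 0.96 between shLUC and shHNRNPU, and 0.70 between shLUC and hPSC. The hPSC list was lower than shLUC at 28 ends and higher at 11. At 20q it held 88 regions where shLUC held 153, at 16q 98 against 150 and at 8q 123 against 172. At 19q it held 147 against 110, at 20p 120 against 90 and at 3q 119 against 92.

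**Figure D2:**
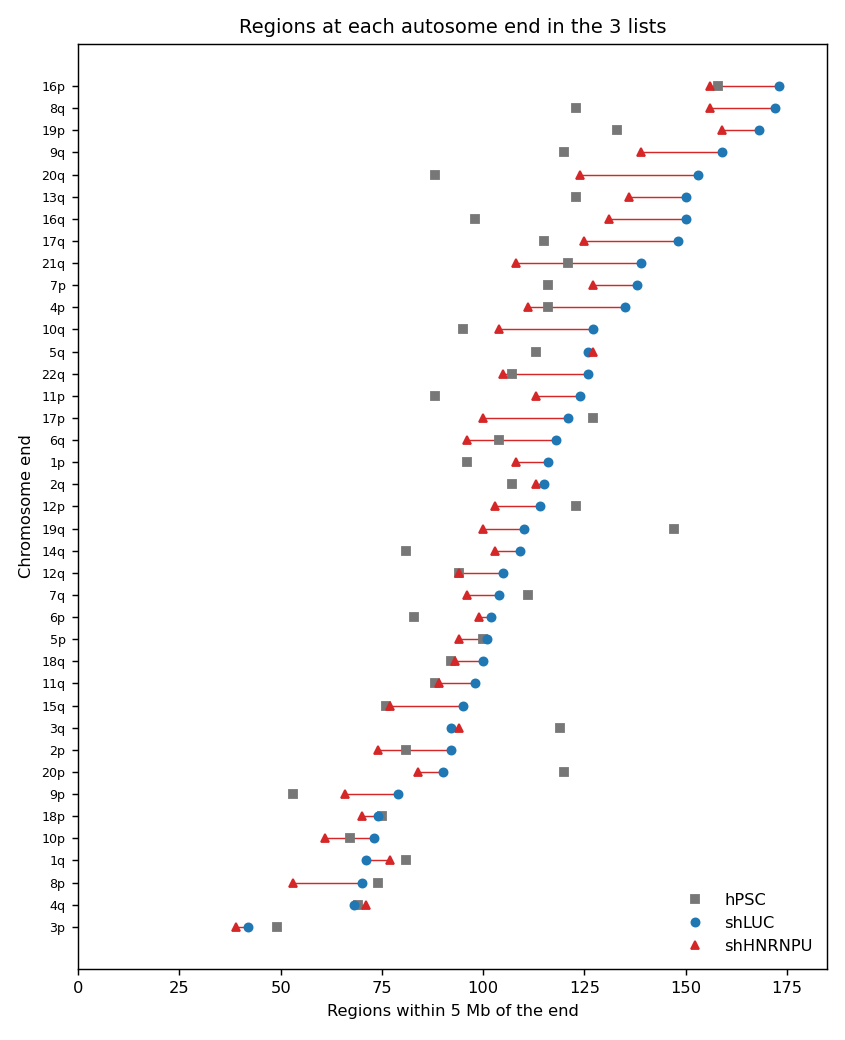
Number of regions within 5 Mb of each of 39 autosome ends (x axis) in hPSC (squares), shLUC (circles) and shHNRNPU (triangles), ordered by the shLUC count (y axis). A line joins shLUC and shHNRNPU, and there is 1 list per group and so no error bar. The triangle lies left of the circle at 35 ends, and the squares are farthest below shLUC at 20q (88 against 153).

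From shLUC to shHNRNPU the count fell at 35 of 39 ends and rose at 4, where 76.4% of 508 windows of 5 Mb in the rest of the autosomes had fewer regions. These are not on a like footing, as the ends held 22.8 shLUC regions per Mb and the rest 12.96. A fall by the same percentage shows as a lower count more often where counts are larger. The ends that rose were 1q (71 to 77), 4q (68 to 71), 3q (92 to 94) and 5q (126 to 127). The largest falls were at 21q (139 to 108, a change of -22.3%), 20q (153 to 124, -18.95%), 4p (135 to 111, -17.8%), 10q (127 to 104, -18.1%) and 17q (148 to 125, -15.5%). The largest fall as a share was at 8p (70 to 53, -24.3%). Measured against the ratio of the autosomal lists (0.921), 24 ends were below and 15 above. Of the 17 chromosomes with both ends measured, 13 had fewer regions at both.

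The share of shLUC regions lost was above that of the rest of the autosomes at 34 of 39 ends, and the gained share at 32. It ranged from 16.9% at 1q (12 of 71, interval 9.94 to 27.3%) to 46.8% at 21q (65 of 139, interval 38.7 to 55.0%), with a median of 33.3%. After 21q the highest were 8p with 45.7% (32 of 70, interval 34.6 to 57.3%), 12q with 43.8% (46 of 105) and 4p with 41.5% (56 of 135). The intervals of these 4 ends overlapped each other. At 12q the gained share was also the highest of all ends, 37.2% (35 of 94, interval 28.1 to 47.3%), so that the net change there was -11 regions. At 20q the lost share was 32.7%, near the median, while the gained share was among the lowest, 16.9% (21 of 124, interval 11.4 to 24.5%). The net change at 20q was -29 regions.

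**Figure D3:**
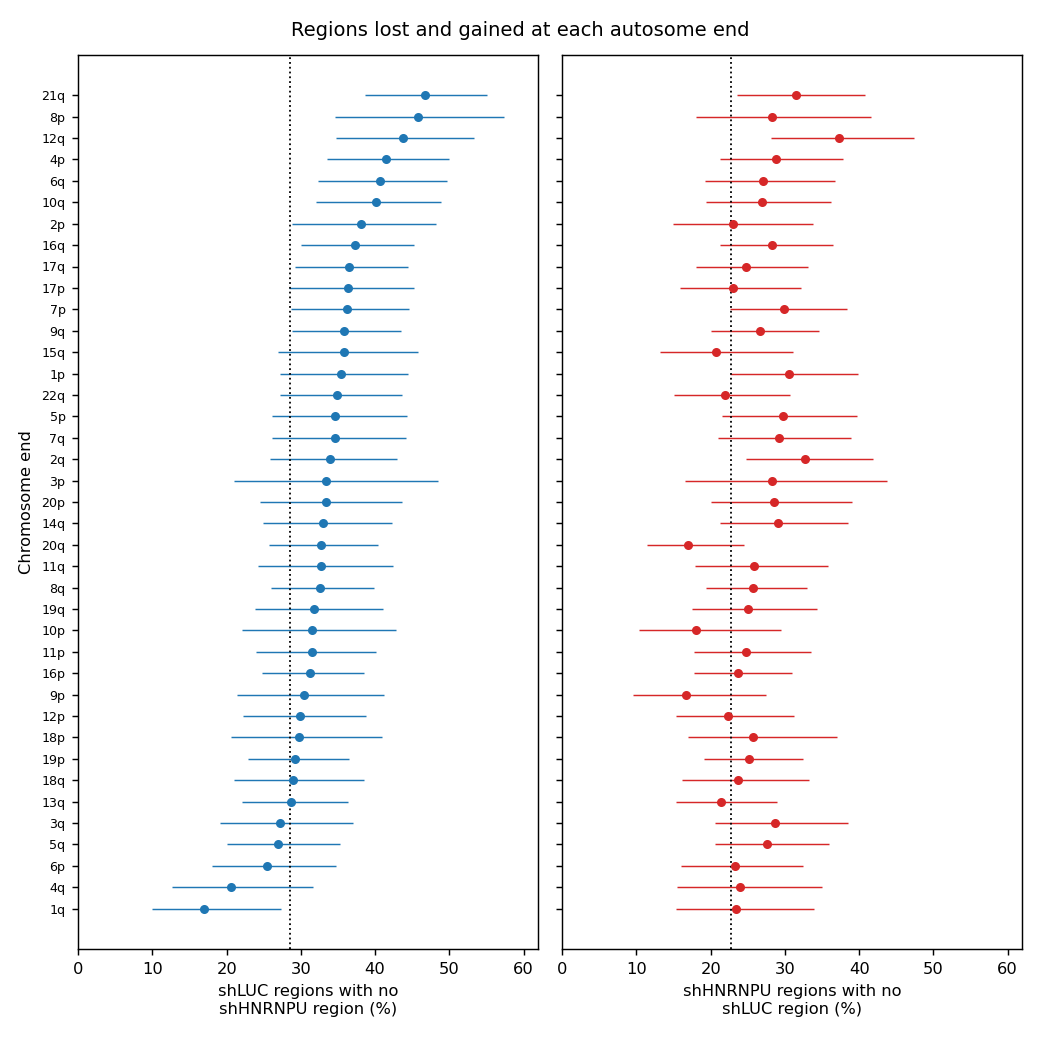
Share of shLUC regions with no shHNRNPU region (left, %) and of shHNRNPU regions with no shLUC region (right, %) at each of 39 autosome ends, ordered by the lost share, with 95% Wilson intervals. Dotted lines are the shares in the rest of the autosomes, 28.5% lost and 22.7% gained. The highest lost shares are at 21q, 8p and 12q and the lowest at 1q and 4q.

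Within the ends with the largest falls, losses were spread in different ways. At 17q the outermost 1 Mb went from 30 to 17 regions, of which 19 were lost and 6 gained, while the next 1 Mb went from 36 to 34. At 10q the step from 1 to 2 Mb went from 52 to 39 regions. At 20q the outermost 3 steps of 1 Mb went from 40 to 34, 52 to 41 and 45 to 34. At 21q each of the 5 steps fell, by between 5 and 7 regions. At 4p the step from 1 to 2 Mb stayed at 33 regions with 15 lost and 15 gained.

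The regions nearest to the telomere lay close to the first or last position of the chromosome at several ends. Distances run to that position in GRCh38, and stretches there that lack sequence were not subtracted. How much of a distance or of a median below is such a stretch was not measured. The nearest shLUC region was 10.5 kb from the end of 2p (chr2:10283-10682), 11.05 kb at 12q, 11.3 kb at 13q, 11.4 kb at 22q and 12.9 kb at 5p, and the same coordinates were in shHNRNPU. The nearest hPSC region was 10.2 kb from the end of 16p (chr16:9982-10381). In all, 6 shLUC, 6 shHNRNPU and 3 hPSC regions lay within 20 kb of an end. The nearest region was the same in shLUC and shHNRNPU at 23 ends. It was the same in all 3 lists at 15q only, at chr15:101965833-101966232 in the pseudogene WASH3P, 25.2 kb from the end. Such subtelomeric duplications have near-identical copies at several ends, and how reads with several matches were placed is not given in the sources used here. Over the ends, the nearest shLUC region lay at a median of 114 kb, against 126 kb for shHNRNPU and 105 kb for hPSC. The farthest was at 14q in hPSC, 1131 kb from the end in the immunoglobulin heavy chain locus (IGH), where both hairpin lists had a region at 171 kb. At 1p the nearest shLUC region was 903 kb from the end, and the other lists had one at 191 kb in WASH9P.

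Regions at the ends lay in genes more often than elsewhere, and genes also took up more of the sequence there, as protein-coding genes covered 51.0% of the ends and 41.8% of the rest. The centre was in a protein-coding gene for 62.2% of shLUC regions at the ends and 55.0% in the rest of the autosomes, a difference of 7.21 points (interval 5.68 to 8.72). It was 62.7% and 55.3% in shHNRNPU, and 55.2% and 51.8% in hPSC. In each list this rise was smaller in proportion than the rise in sequence covered by genes. The gene table gives neither exons nor introns, so that these were not told apart. Ends also differed from the rest within classes of gene number. In windows of 1 Mb with 10 to 19 protein-coding genes, the median shLUC count was 27.5 at the ends (52 windows) and 19 in the rest (364 windows). With 5 to 9 genes it was 23 and 16, with 1 to 4 genes 14 and 10, and with 20 or more genes 29.5 and 21. The last class has no upper limit, and its windows had a median of 31 genes at the ends and 26 in the rest. In hPSC the medians lay closer where genes were present, with 23 and 20 for 10 to 19 genes and 26 and 25 for 20 or more. In windows without a gene, of which the ends had 8, they were 9.5 and 5 in hPSC and 7 and 6 in shLUC. Across ends, the gene number and the shLUC count had a Spearman correlation of 0.70, and the gene number and the lost share one of -0.01.

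**Figure D4:**
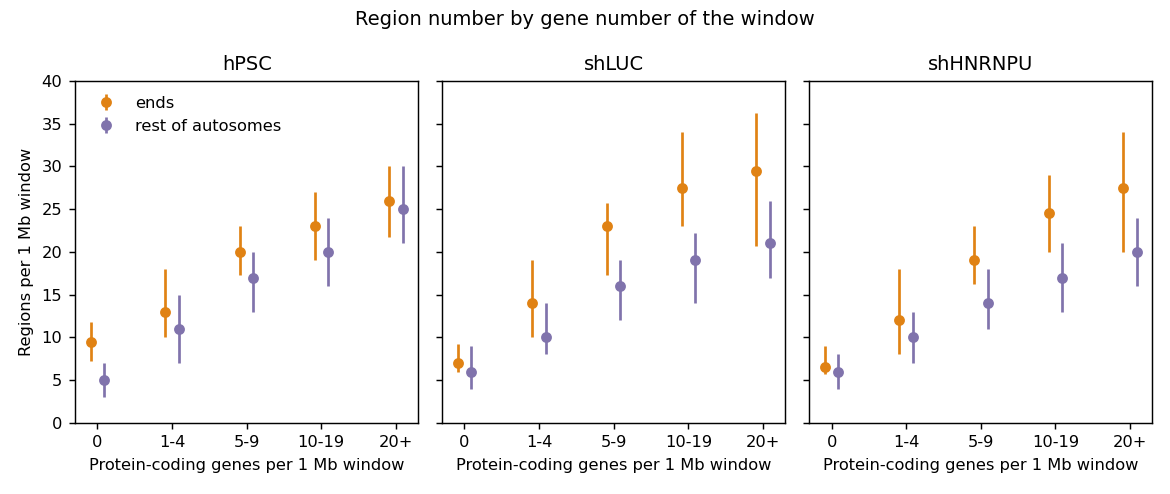
Regions per 1 Mb window (y axis) by the number of protein-coding genes in the window (x axis) for the 3 lists. Points are medians and bars the quartiles over windows, at the ends (orange) and in the rest of the autosomes (purple). In shLUC the median at the ends is 27.5 against 19 in the rest for 10 to 19 genes, and in hPSC it is 23 against 20.

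Many regions lay at gene boundaries, whose surroundings (1 kb to either side) made up 4.36% of the sequence at the ends and 2.27% in the rest. The centre was within 1 kb of either boundary of a protein-coding gene for 16.7% of shLUC regions at the ends (12.3% in the rest), 19.1% of shHNRNPU regions (13.7%) and 19.8% of hPSC regions (19.02%). The share was higher at the ends by 4.40 points in shLUC (interval 3.28 to 5.58) and 5.39 in shHNRNPU (interval 4.14 to 6.69). In hPSC it was not clearly higher (0.75 points, interval -0.54 to 2.08). These differences are not corrected for the sequence near boundaries. From the rest to the ends that sequence rose by more in proportion (2.27% to 4.36%) than the share of regions did in any list. Lost regions were near a boundary in 11.3% of cases (interval 9.80 to 13.003%), kept regions in 19.5% (interval 18.1 to 20.97%) and gained regions in 17.8% (interval 15.6 to 20.3%). The regions lost at chromosome ends were thus less often near a gene boundary than those kept, as they were in the rest of the autosomes (9.64% and 13.4%).

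Around start sites the lists differed in side. Regions of chromosome 8 were left out here, which left 4205 shLUC, 3766 shHNRNPU and 3734 hPSC regions at the ends. Among end regions with centre within 1 kb of a start site, 34.5% of 537 in shLUC lay before the start (interval 30.6 to 38.6%), 34.0% of 573 in shHNRNPU (interval 30.3 to 38.0%) and 52.9% of 630 in hPSC (interval 49.0 to 56.7%). The step of 0.5 kb after the start held 7.02% of shLUC, 8.63% of shHNRNPU and 6.72% of hPSC regions, and the step before it 3.83%, 4.65% and 7.85%. In the rest of the autosomes the shares before the start were 32.6%, 32.2% and 45.0%.

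**Figure D5:**
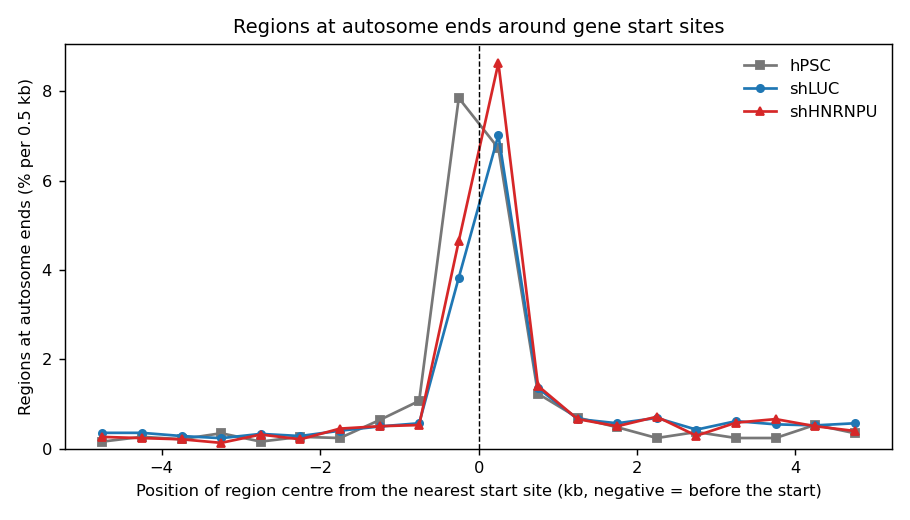
Share of end regions (y axis, % per step of 0.5 kb) by the position of their centre from the nearest start site of a protein-coding gene (x axis, kb, negative before the start) for the 3 lists. Regions of chromosome 8 are left out. Regions of the hairpin lists are most frequent just after the start (7.02% in shLUC, 8.63% in shHNRNPU), and those of hPSC just before it (7.85%).

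Of the 2381 protein-coding genes at the ends, 1346 held a shLUC region (56.5%), 1338 a shHNRNPU region (56.2%) and 1242 an hPSC region (52.2%). In the rest of the autosomes the shares were 54.0%, 53.3% and 60.8%, so the order of hPSC and the hairpin lists was turned. In all, 796 end genes held a region in all 3 lists and 609 in none. From shLUC to shHNRNPU, 440 end genes had fewer regions (18.5%), where the share of all autosomal protein-coding genes was 18.3%. More regions were seen in 328 (13.8%), where the share of all was 13.5%. The genes at chromosome ends thus changed about as often as genes elsewhere.

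The genes with most shLUC regions were long genes. PTPRN2, which codes for a receptor-type phosphatase of secretory vesicles at 7q, held 29 shLUC, 26 shHNRNPU and 24 hPSC regions. DLGAP2 at 8p and DLGAP1 at 18p, which code for scaffold proteins of the synapse, held 24, 20 and 21, and 22, 19 and 20 regions in the same order. CDH4 at 20q, a cadherin, held 22, 16 and 9. CACNA1C at 12p, a calcium channel subunit, held 19, 15 and 20. Per 100 kb of gene, shLUC values were 2.77 for PTPRN2, 2.47 for DLGAP2, 3.20 for CDH4, 2.29 for DLGAP1 and 2.61 for CACNA1C, and so differed little. In CDH4 none of the 9 hPSC regions overlapped a shLUC region, and in DLGAP2 7 of 21 did.

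The 6 genes named for the largest net fall were chosen by that difference in counts, which is therefore a description. By single regions lost, PTPRN2 with 11 and DLGAP2 with 10 were higher. MYT1L, a neuronal zinc finger factor at 2p, went from 17 shLUC to 9 shHNRNPU regions, with 8 lost and 0 gained, and hPSC held 9. PRDM16, a factor of brown fat and blood stem cells at 1p, went from 13 to 6 with 9 lost and 2 gained, and hPSC held 6. CDH4 lost 8 and gained 2. SDK1 at 7p, an adhesion molecule of synapses, went from 18 to 12 with hPSC at 10. TBCD, a tubulin folding cofactor at 17q, went from 11 to 5 with hPSC at 5, and 8 of its 11 regions were lost. ARHGEF10 at 8p went from 6 to 1 with hPSC at 6, a net fall of 5 regions that STK32C at 10q shared (10 to 5). In MYT1L, PRDM16 and TBCD the shHNRNPU and hPSC counts were equal, and a shLUC region was overlapped by 5 of 9, 0 of 6 and 1 of 5 hPSC regions.

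A net rise of 3 regions was the highest and was shared by 8 end genes, of which 6 were named by the order of the rule (RAB11FIP3 and AFDN were the others). VAV2 at 9q went from 6 to 9, with 2 lost and 5 gained. KCNQ1 at 11p, a potassium channel in an imprinted domain, went from 10 to 13 with 9 of 10 kept and 4 gained. LMBR1 at 7q, whose intron holds the limb enhancer of SHH, went from 5 to 8 with all 5 kept. KLC1 at 14q, a kinesin light chain, went from 2 to 5, NFIC at 19p, a nuclear factor I protein, from 1 to 4, and CDYL at 6p, a chromodomain corepressor, from 3 to 6. A net fall of 3 or more regions was seen in 40 end genes.

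Genes of developmental factors formed a list of 21 at the ends, and lists like this were set with earlier results of these data known. A shLUC region was present in 20 of them and a shHNRNPU region in 18, but an hPSC region in 7. Over all end genes the shares were 56.5%, 56.2% and 52.2%. From shLUC to shHNRNPU, 7 had fewer (33.3%, against 18.5% of all end genes), 3 more (14.3%, against 13.8%) and 11 as many regions, with a median change of 0 as over all end genes. Every gene of this list held a region, whereas 25.6% of all end genes held none and so could not change. Among genes with a shLUC region, 7 of 20 in this list and 440 of 1346 over all end genes had fewer. The list holds few genes and was not tested. The short genes FOXC1, FOXF2 and FOXQ1 at 6p, which code for forkhead factors, and SHH and MNX1 at 7q, which code for a morphogen and a motor neuron factor, each held 1 shLUC and 1 shHNRNPU region and no hPSC region. NKX6-2 at 10q, LHX3 at 9q, MSX1 at 4p and IRX4 at 5p, all homeobox genes, were also in both hairpin lists and not in hPSC. The genes that fell were PRDM16 (13 to 6), NOTCH1 (4 to 2), SKI (3 to 2), IRX2 (2 to 1), EN2 (1 to 0), SOX12 (1 to 0) and SOX18 (1 to 0). Those that rose were HDAC4 (11 to 12), IRX1 (1 to 2) and NKX1-1 (0 to 1).

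Zinc finger genes (symbols that start with ZNF) numbered 121 at the ends and went the other way. An hPSC region was present in 84, a shLUC region in 64 and a shHNRNPU region in 60. Of these genes, 60 lay at 19q, which holds a cluster of KRAB zinc finger genes, though not all 60 need belong to it. At 19q 48 held an hPSC region, 34 a shLUC region and 30 a shHNRNPU region. Fewer regions from shLUC to shHNRNPU were seen in 22 of the 121 genes (18.2%, 10 of them at 19q) and more in 14 (11.6%), against 18.5% and 13.8% of all end genes. Of the 121 genes 15.7% were in no list, against 25.6% of all end genes.

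Of 18 genes of families with copies at several ends, 12 were in no list (66.7%), among them all 8 OR4F olfactory receptor genes, DUX4, FRG2, FRG2B and WASHC1, the genes of an early embryonic factor, of a facioscapulohumeral dystrophy region family and of an actin regulator. Over all end genes, 25.6% were in no list. These genes are similar to their copies, and how reads were divided among copies is not given in the sources used here. TUBB8, a tubulin gene of the oocyte at 10p, held 1 hPSC, 1 shLUC and 0 shHNRNPU regions, and IQSEC3 at 12p held 3 in each. Of the alpha-globin cluster at 16p, HBM held 1 region in each list, and HBZ, HBA1, HBA2 and HBQ1 held none. The genes of this cluster had a median length of 0.835 kb.

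Of the telomere maintenance genes of the list, 3 lay at the ends. TERT at 5p, the catalytic subunit of telomerase, held 4 shLUC, 3 shHNRNPU and 1 hPSC regions. RTEL1 at 20q, a helicase of telomeres, held 2, 2 and 1, and NHP2 at 5q held none. Of 43 well-known genes near chromosome ends that were named by a list, 14 had fewer regions in shHNRNPU than in shLUC (32.6%), 9 more (20.9%) and 20 as many, 3 of which had none in any list. Over all end genes 18.5% had fewer and 13.8% more, and 25.6% were in no list against 6.98% of these. COL6A1 at 21q, a collagen gene, had 2 shLUC regions and none in the other lists. CREBBP at 16p, a histone acetyltransferase, had 2 shHNRNPU and 2 hPSC regions and none in shLUC. SMARCA2 at 9p, a chromatin remodeller, had 7, 5 and 1 in shLUC, shHNRNPU and hPSC, NFATC1 at 18q, a transcription factor of T cells, 9, 7 and 2, and EHMT1 at 9q, a histone methyltransferase, 4, 4 and 8. SHANK3 at 22q, a scaffold protein of the synapse, had 3, 3 and 5.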

How the data were processed

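MAR-seq was analysed for 6 samples of H1 cells in 3 groups (2 samples per group, assigned by their titles). The authors deposited 1 region list per group, with chromosome, start and end coordinates and a score that was 0 in all rows. The submitters' processing notes name cutadapt, Bowtie2, SAMtools, MACS2 and deepTools, and the build hg38, without their roles. Versions, thresholds, the use of input, the pooling of samples and the origin of the fixed width are not given in the sources used here. Such choices set which weak regions enter a list and so can move counts, losses and gains. No columns were set aside (0). The paper with the series describes other assays, and none of its methods was used.

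Regions were assigned by their centre. Overlap was at least 1 bp, and intervals were Wilson (shares) or Newcombe (differences) at 95%. Genes came from the RefSeq table of GRCh38.p14, scaffold entries left out, and an end gene had its midpoint within 5 Mb of an end. Named genes were the 5 with most shLUC regions, the 6 with the largest net fall and the 6 with the largest net rise (ties by the hPSC count on the shLUC side, then by symbol), a fixed list of 45 (43 within 5 Mb), and the region nearest to each end. The members, the lists and the rules were chosen with earlier results of these data known. The alternatives were cuts of 2 and 10 Mb, other overlap rules, merged regions, other gene rules and leaving out chromosome 19. Code (Python 3.11.15, numpy 2.4.6, pandas 2.3.3, scipy 1.17.1, matplotlib 3.10.9) was tested on simulated lists.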

Additional observations from a re-analysis of the deposited data

How the results depend on the processing

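Of 74 values recomputed under 10 settings, 34 stayed within the counting interval of the reported value (or within 1.5 times, for counts). The other 40 moved beyond it and 0 changed sign. Shares and counts cannot change sign, so that the last number bears only on log2 ratios and differences. With a cut of 2 Mb or 10 Mb, the log2 density ratio became 0.72 or 0.43 in hPSC, 1.05 or 0.59 in shLUC and 0.97 or 0.55 in shHNRNPU. Over windows of 1 Mb with a gene or region it was 0.52, 0.74 and 0.70. The share of end regions in a protein-coding gene was 58.1%, 65.4% and 66.0% at 2 Mb for hPSC, shLUC and shHNRNPU, and 60.1% for shLUC and 60.6% for shHNRNPU at 10 Mb. It was 59.6%, 64.3% and 65.5% when any overlap counted, and 67.0%, 72.0% and 71.8% with all genes of the table. The share within 1 kb of a gene boundary was 22.3%, 19.04% and 21.9% at 2 Mb, 15.1% for shLUC and 17.1% for shHNRNPU at 10 Mb, and 27.8%, 24.4% and 26.3% with all genes. Genes with a region numbered 627, 723 and 714 at 2 Mb and 2178, 2176 and 2158 at 10 Mb, as the window holds fewer or more genes by construction. With partners up to 5 kb away, the lost share was 28.3%, the gained share 21.1%, the difference in losses 2.63 points, the difference in gains 0.82 points and the share of shLUC end regions with an hPSC region 29.5%. That share was 10.2% when 50% of both regions had to overlap. Ends with fewer shHNRNPU than shLUC regions numbered 34 at 2 Mb, 39 at 10 Mb and 24 of 39 after scaling to the list size, against 35 as reported. The rule of 1.5 times for counts took the fall to 24 as unmoved. The causes of these shifts were not tested.

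No paired analysis was possible because only 1 list exists for a group, and for the same reason no replicate was left out. A density per base of assembled sequence was planned and not run, as it needs a genome sequence. Depth is unknown, so that a region present in 1 list and absent from another can lie near the calling threshold in both. Counting intervals cover neither that nor the spread between cultures.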
